A study of Mus musculus with 4 samples.

Results

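The genes examined were 41 components of the DNA replication machinery, taken by name from a list of pre-replication complex, helicase, polymerase, clamp, clamp loader, Okazaki fragment, nucleotide supply and G1/S regulator genes. All 41 passed the low-count filter, out of 18758 genes tested and 54115 genes with a transcript in the deposited files. They were measured in tumours of MC38, an injected mouse colon adenocarcinoma line, and the tumours were snap-frozen. The saline group (vehicle) received 10 daily intraperitoneal injections of saline. The vanoxerine group received 10 daily intraperitoneal injections of vanoxerine at 25 mg/kg. Each group had 2 RNA-seq libraries. Vanoxerine is a dopamine reuptake inhibitor. The labels used here give no host strain, age or sex. Nothing says that libraries 1 and 2 of a treatment were separate mice, so each p-value reflects library-to-library spread that could be purely technical. All tumours were of 1 cell line, and each library was made from whole tumour tissue with the host's own cells in it.

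DNA replication starts when the origin recognition complex, Cdc6 and Cdt1 load the ring-shaped Mcm2-7 complex onto DNA in G1. Cdc45 and the GINS complex then join Mcm2-7 to form the active helicase, polymerase alpha with its primase lays down primers, and the RFC complex loads the PCNA ring that tethers polymerases delta and epsilon. Fen1 and Lig1 process and seal Okazaki fragments. Ribonucleotide reductase, thymidylate synthase and thymidine kinase supply deoxynucleotides. E2F factors switch on many replication genes before S phase, so the mRNAs of these genes are widely used as a readout of proliferating cells in a tumour.

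Promoter sequence is shown first because E2F sites are the feature most often named for these genes. Of the 41 genes, 33 had an entry in the RefSeq promoter table of build GRCm38.p6, which spans 250 bases before to 50 bases after the annotated start. The letters searched were TTTCGCGC, TTTGGCGC and TTTCCCGC on both strands, with overlaps allowed. At least 1 match was present in 14 of the 33 promoters (42.4%) against 573 of all 27025 promoters in the table (2.12%). The match was present in 3 of 8 promoters of genes that fell, in 1 of 3 promoters of genes that rose and in 10 of 22 promoters of genes that were not called. The letters CCAAT, the core of the CCAAT box, were in 19 of 33 (57.6%) against 11096 of 27025 (41.1%). The 160 bases upstream of the RefSeq start are printed, in the direction of the gene. They are given for a gene that fell (Rfc3, chr5:151651209-151651368, minus strand), a gene that rose (Mcm6, chr1:128359706-128359865, minus strand) and a gene that was not called (Mcm5, chr8:75109349-75109508, plus strand). The gene spans given further below come from another annotation, GENCODE M21. By its GENCODE span, the Rfc3 match lies inside the gene and not upstream of it. Capitals mark the E2F letters only, not CCAAT, and in Mcm6 and Mcm5 a pair of matches on opposite strands overlaps.
Rfc3: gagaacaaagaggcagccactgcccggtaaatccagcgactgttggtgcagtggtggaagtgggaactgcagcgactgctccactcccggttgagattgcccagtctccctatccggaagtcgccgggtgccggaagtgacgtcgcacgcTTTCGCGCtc
Mcm6: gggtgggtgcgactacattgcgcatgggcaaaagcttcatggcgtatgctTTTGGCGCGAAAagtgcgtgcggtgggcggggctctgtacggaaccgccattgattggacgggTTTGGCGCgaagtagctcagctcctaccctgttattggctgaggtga
Mcm5: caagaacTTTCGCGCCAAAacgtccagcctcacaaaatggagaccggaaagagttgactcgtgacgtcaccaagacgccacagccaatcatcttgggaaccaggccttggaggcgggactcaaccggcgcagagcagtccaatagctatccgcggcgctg
The matches in these windows describe the letters only. The 3 genes were picked as examples, 1 per outcome, and each carries at least 1 match. They therefore cannot show whether the matches go with what the mRNA did.

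The replication genes as a set stayed close to their saline level, and the changes that passed the test were small and went both ways. Of the 41 genes, 4 rose (Mcm4, Mcm6, Rrm1 and Tk1), 9 fell (Cdt1, Cdc45, Gins1, Gins3, Prim1, Pold2, Rfc3, Rfc4 and Tyms) and 28 did not pass edgeR's quasi-likelihood test at a Benjamini-Hochberg adjusted p under 0.05. Log2 fold changes of vanoxerine over saline ran from -0.43 (Gins3) to 0.30 (Tk1), with a median of -0.017, while the median of all genes tested was -0.0096. The share called was 31.7% against a background of 36.9% of all genes. In the higher direction it was 9.76% against 21% of all genes, and in the lower direction 22.0% against 15.9%. The members' count is thus under the background overall and for genes that rose, and above it for genes that fell. The saline and vanoxerine libraries did not overlap for 22 of the 41 genes (53.7%, 9 higher and 13 lower), against 70.7% of all genes. For the 28 genes that were not called, the 95% intervals of the log2 fold change all lay within -0.44 to 0.34.

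The number of calls depended on which library was left out, in either group. Without vanoxerine library 1 no member was higher and 2 were lower (Prim1 and Rfc3), and without vanoxerine library 2 no member was higher and 1 was lower (Pold2). Without saline library 1 the counts were 6 higher and 14 lower, and without saline library 2 they were 8 and 11. The count over all genes moved alike: without vanoxerine 1, 4.88% of the members and 15.9% of all genes were called, and without vanoxerine 2, 2.44% and 15.2%. Without saline 1 the shares were 48.8% and 48.9%, and without saline 2 they were 46.3% and 47.7%. A fit that leaves a group with 1 library assumes that the lone library varies like the pair of the other group. The 2 saline libraries differed more from each other than the 2 vanoxerine libraries did. The median absolute log2 ratio between the libraries of a group was 0.071 in saline and 0.027 in vanoxerine over the 41 genes, and 0.0998 and 0.0469 over the 9871 genes with a mean CPM of at least 10. The median absolute log2 fold change between groups was 0.079 for the replication genes and 0.27 for those 9871 genes.

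**Figure D1:**
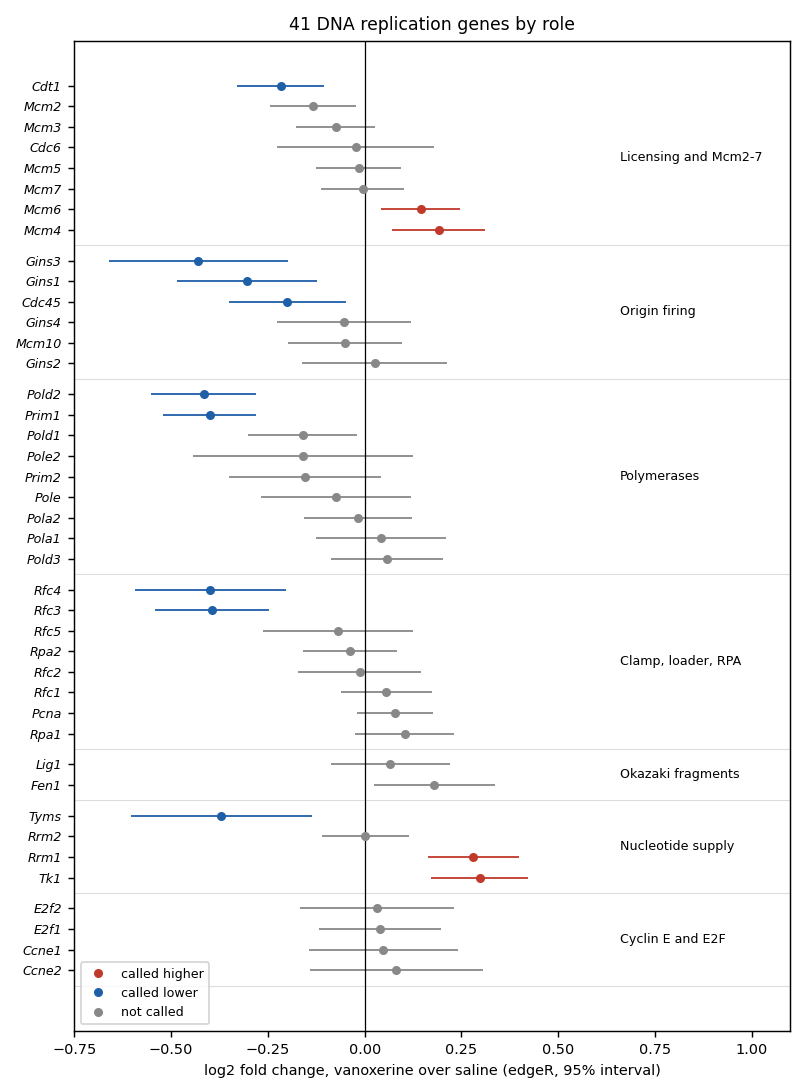
Log2 fold change of vanoxerine over saline for the 41 replication genes, ordered by role, with the edgeR 95% interval as the bar. Filled colours mark the 4 genes called higher and the 9 called lower; all points lie between -0.43 and 0.30.

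The summed level of the 41 genes gave the same picture on the CPM scale (counts relative to the TMM-adjusted library size, edgeR's correction for composition). It came to 3495 and 3542 CPM in the saline libraries and to 3513 and 3484 CPM in the vanoxerine libraries. The groups overlapped, with means of 3518 ± 33.2 and 3498 ± 20.9 (SD, n = 2) and a ratio of 0.994 (exact two-sided permutation test, p = 0.67, where 0.33 is the smallest p that 2 against 2 can give). On the TPM scale, which divides reads by transcript length, it came to 1783 and 1788 with saline and to 2012 and 1979 with vanoxerine. These groups did not overlap, and the ratio was 1.12 (exact two-sided permutation test, p = 0.33, the smallest possible). The median of all genes was above 0 on this scale too, with a log2 fold change of 0.126 on log2(TPM + 1). How much of the ratio is shared with other genes was not tested.

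The libraries held 75748162 and 70274527 estimated reads in saline and 70564325 and 67289273 in vanoxerine. Of all genes tested, 21% rose and 15.9% fell. Macrophage markers rose in 10 of 10 genes listed, and their summed CPM went from 1021 and 1058 (saline) to 4334 and 4357 (vanoxerine). Of 10 fibroblast markers 8 fell and 1 rose (738 and 753 against 558 and 562 CPM). Of 10 neutrophil markers 5 fell and 1 rose (1037 and 1093 against 653 and 651 CPM). Of 10 endothelial markers 6 fell and 2 rose (177 and 173 against 177 and 182 CPM), and of 10 T cell markers 3 fell and 2 rose (624 and 632 against 615 and 597 CPM). All 7 erythroid markers that were tested, of 10 listed, fell (13969 and 15082 against 6248 and 5903 CPM). Of those not tested, Car1 had no reads in any library, and Gata1 had 0 reads in both saline libraries but 9 and 11 in the vanoxerine libraries. The epithelial markers that would define colon adenocarcinoma were low: 7 of 10 were tested, 3 rose and 1 fell, their summed level was 17.7 and 21.3 CPM in saline and 35.9 and 37.8 CPM in vanoxerine, and Cdx2 had no reads in any library. In such bulk samples, fewer cells of a type and less RNA per cell cannot be told apart. The part of these shifts in the replication genes' values was not tested.

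Of 8 genes of licensing, the loading of Mcm2-7, 2 rose, 1 fell and 5 were not called, with a median log2 fold change of -0.02. The share called, 37.5%, is close to the 36.9% of all genes. Cdt1, the loading factor (chr8:122568015-122573554, plus strand), stood at 126 and 127 CPM in saline and 110.2 and 107 CPM in vanoxerine. The vanoxerine libraries were both below the saline libraries, and Cdt1 fell 1.16-fold (log2 fold change -0.22 ± 0.046 SE, edgeR adjusted p = 0.0140). Mcm6, a subunit of the ring (chr1:128331590-128359664, minus strand), stood at 217 and 221 CPM in saline and 243 and 241 CPM in vanoxerine. It rose 1.11-fold (0.14 ± 0.042, edgeR adjusted p = 0.0392), with no overlap. Mcm4, another subunit of the ring (chr16:15623897-15637400, minus strand), stood at 122 and 116 CPM in saline and 138 and 134 CPM in vanoxerine. It rose 1.14-fold (0.19 ± 0.049, edgeR adjusted p = 0.0277), again with no overlap. Mcm2 and Mcm3 were lower in both vanoxerine libraries without passing the test, with log2 fold changes of -0.13 (adjusted p = 0.0669) and -0.07 (adjusted p = 0.220). Mcm7 showed the least evidence of a difference, at 160.4 and 164 CPM in saline and 161 and 162 CPM in vanoxerine (log2 fold change -0.01, adjusted p = 0.942). Mcm5 (-0.02) and Cdc6, the factor that recruits Cdt1 and the ring (-0.02), were also not called. The 6 subunits of the ring assemble in equal number, and the differences between their fold changes were not tested.

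The helicase activators were lower where they were called. Of 6 genes, 3 fell (Cdc45, Gins1 and Gins3), none rose and 3 were not called (Mcm10, Gins2 and Gins4, between -0.05 and 0.03), with a median of -0.13. The share called in this short list was 50%, against 36.9% of all genes. Gins3 (chr8:95633453-95645060, plus strand) had 17.8 and 17.9 CPM in saline and 12.6 and 13.9 CPM in vanoxerine. It was the largest decrease among the 41 genes, 1.35-fold (-0.43 ± 0.095, edgeR adjusted p = 0.0162), with both vanoxerine libraries below both saline libraries. Its promoter window carries GCGGGAAA 41 bases upstream of the RefSeq start. That start and the match both lie inside the gene span given above, which comes from another annotation (GENCODE M21). Gins1 (chr2:150905400-150931280, plus strand) had 27.0 and 27.6 CPM in saline and 22.7 and 21.6 CPM in vanoxerine, and fell 1.23-fold (-0.30 ± 0.074, edgeR adjusted p = 0.0226). Cdc45, which joins Mcm2-7 with GINS (chr16:18780447-18811987, minus strand), had 45.0 and 44.4 CPM in saline and 40.0 and 37.8 CPM in vanoxerine, and fell 1.15-fold (-0.20 ± 0.062, edgeR adjusted p = 0.0487). Gins2 had 29.1 and 28.1 CPM in saline and 30.4 and 27.9 CPM in vanoxerine, and these libraries overlapped (log2 fold change 0.03, adjusted p = 0.830). The 6 genes together had 202 and 201 CPM in saline against 187 and 180.1 CPM in vanoxerine, a ratio of 0.911 (exact permutation test, p = 0.33, the smallest possible).

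Among the polymerases, 2 of 9 genes fell, none rose and 7 were not called, with a median of -0.15. The share called, 22.2%, is under the 36.9% of all genes. Prim1, the catalytic primase subunit (chr10:128015168-128030037, plus strand), had 66.7 and 67.6 CPM in saline and 50.8 and 50.9 CPM in vanoxerine. The gap was far wider than the spread of either pair, and Prim1 fell 1.32-fold (-0.40 ± 0.049, edgeR adjusted p = 0.00178). Pold2, the accessory subunit of polymerase delta (chr11:5872180-5878292, minus strand), had 65.3 and 66.8 CPM in saline and 48.2 and 50.9 CPM in vanoxerine, and fell 1.33-fold (-0.42 ± 0.055, edgeR adjusted p = 0.00239). The catalytic subunit of polymerase delta, Pold1, was lower in both vanoxerine libraries without being called (-0.16, adjusted p = 0.0759). Pold3 (0.06), Prim2 (-0.15), Pole (-0.07) and Pole2 (-0.16) were not called either. Pola1 and Pola2, the catalytic and regulatory subunits of polymerase alpha, had log2 fold changes of 0.04 and -0.02, and Pola2 stood at 73.3 and 73.0 CPM in saline and 75.1 and 69.5 CPM in vanoxerine. The 9 genes together had 513 and 531 CPM in saline against 473 and 477 CPM in vanoxerine (ratio 0.910, exact permutation test, p = 0.33).

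The clamp, its loader and the single-strand binding protein had 2 genes that fell, none that rose and 6 that were not called, with a median of -0.02. The share called, 25%, is under the 36.9% of all genes. Both genes that fell are small subunits of the RFC clamp loader. Rfc3 (chr5:151642756-151651242, minus strand) had 75.9 and 82.1 CPM in saline and 61.4 and 58.7 CPM in vanoxerine, and fell 1.31-fold (-0.39 ± 0.060, edgeR adjusted p = 0.00408). Rfc4 (chr16:23113943-23127737, minus strand) had 37.1 and 33.7 CPM in saline and 26.1 and 27.7 CPM in vanoxerine, and fell 1.32-fold (-0.40 ± 0.080, edgeR adjusted p = 0.0112). The groups overlapped for neither gene. The other loader subunits had fold changes of 0.06 (Rfc1), -0.01 (Rfc2, 64.3 and 67.9 against 68.5 and 62.5 CPM, adjusted p = 0.905) and -0.07 (Rfc5). The clamp itself, Pcna, had 315.7 and 315.8 CPM in saline and 336 and 331 CPM in vanoxerine. Its vanoxerine libraries were both higher, with a log2 fold change of 0.08 ± 0.040 that was not called (edgeR adjusted p = 0.182). Rpa1 and Rpa2 of the single-strand binding protein had fold changes of 0.10 and -0.04.

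Okazaki fragment processing held 2 genes and no call, where 36.9% of all genes were called. Fen1, the flap nuclease, had 60.8 and 55.2 CPM in saline and 66.9 and 64.6 CPM in vanoxerine, and did not pass the test (0.18 ± 0.064, edgeR adjusted p = 0.0748). Lig1, the ligase, had a log2 fold change of 0.07 (adjusted p = 0.460).

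Nucleotide supply held 2 of the 4 genes that rose, and 1 that fell. In this list of 4 genes the share called was 75%, against 36.9% of all genes. Rrm1, the large subunit of ribonucleotide reductase (chr7:102441695-102469771, plus strand), had 140.1 and 147 CPM in saline and 173 and 176 CPM in vanoxerine. It rose 1.21-fold (0.28 ± 0.048, edgeR adjusted p = 0.00631). Its partner subunit Rrm2 had 250.6 and 238 CPM in saline and 245 and 245 CPM in vanoxerine, with a log2 fold change of 0.00 (95% interval -0.11 to 0.11). The intervals of the Rrm1 and Rrm2 fold changes did not overlap, but their difference was not tested. Tk1, the salvage kinase for thymidine (chr11:117815526-117826092, minus strand), had 65.8 and 64.4 CPM in saline and 78.2 and 81.9 CPM in vanoxerine. It rose 1.23-fold (0.30 ± 0.051, edgeR adjusted p = 0.00645), the largest increase among the 41 genes. Tyms, which makes thymidylate from deoxyuridylate (chr5:30058202-30073617, minus strand), had 37.4 and 44.6 CPM in saline and 31.5 and 31.9 CPM in vanoxerine, and fell 1.29-fold (-0.37 ± 0.095, edgeR adjusted p = 0.0274). The Tyms call was lost with a transcript length offset (-0.23, adjusted p = 0.301), and its sign turned on log2(TPM + 1), where it was 0.009. The calls of Rrm1 (0.10, edgeR adjusted p = 0.352) and Tk1 (0.28, edgeR adjusted p = 0.0570) were lost with that offset too. With upper-quartile factors Rrm1 was not called (0.15, edgeR adjusted p = 0.0718). Summed, the 4 genes stood at 494 and 494 CPM in saline and 527 and 535 CPM in vanoxerine (ratio 1.07, exact permutation test, p = 0.33).

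The 4 regulators of S-phase entry gave no call, where 36.9% of all genes were called. Ccne1 and Ccne2, the E-type cyclins that activate Cdk2, had log2 fold changes of 0.05 and 0.08. E2f1 and E2f2, activating E2F factors, had 0.04 and 0.03. E2f2 was at 21.2 and 20.3 CPM in saline and 21.8 and 20.6 CPM in vanoxerine, with overlapping libraries (adjusted p = 0.797).

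**Figure D2:**
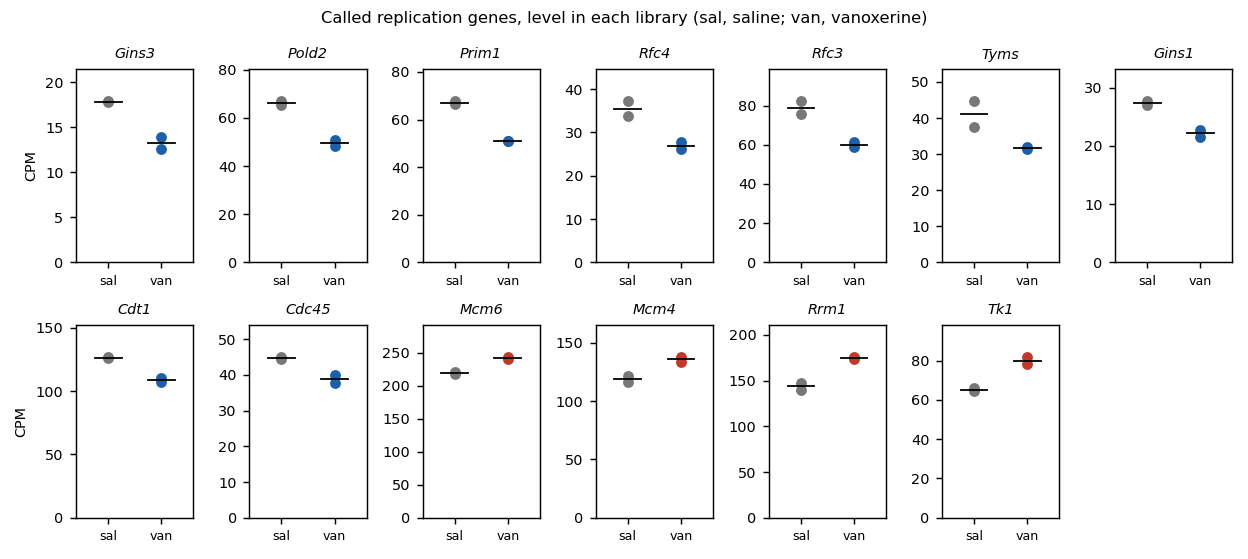
CPM of the 13 called replication genes in each library, 1 panel per gene with the axis starting at 0; dots are the 2 saline (sal) and 2 vanoxerine (van) libraries, and lines their means. In each panel the groups do not overlap, and the gaps run from 1.11-fold (Mcm6) to 1.35-fold (Gins3).

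Compared per length, on the TPM of protein-coding transcripts, the order of the levels was as follows. Over all transcripts, the median log2 fold change of all genes was 0.126 on log2(TPM + 1). Gaps between the groups on this scale are therefore not read as changes of these genes. Pcna, the clamp, led, at 155 and 170 TPM in saline and 216 and 216 TPM in vanoxerine, and Rrm2 came next, at 103 and 97.9 against 120 and 120 TPM. Mcm6 followed, at 63.6 and 62.7 against 83.1 and 81.9 TPM, and the rest of the Mcm ring lay between 28.4 (Mcm4, saline 2) and 61.7 TPM (Mcm5, vanoxerine 1). GINS had Gins1 at 24.7 and 24.5 TPM and Gins4 at 26.1 and 23.2 TPM in saline, which overlapped, but Gins2 at 4.62 and 4.20 TPM and Gins3 at 6.33 and 6.38 TPM. Over all transcripts, coding or not, Gins2 was at 27.1 and 26.4 TPM, level with Gins1 (26.8 and 27.0). The clamp loader had Rfc3 highest at 46.2 and 49.7 TPM in saline, and Rfc2 lowest at 1.52 and 1.88 TPM, the lowest of all 41 genes in both groups on coding transcripts. Over all transcripts that order turned over, with Rfc2 at 80.2 and 79.2 TPM in saline and Rfc3 at 73.2 and 76.1 TPM. E2f2 was next to last, at 3.69 and 3.31 TPM in saline.

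**Figure D3:**
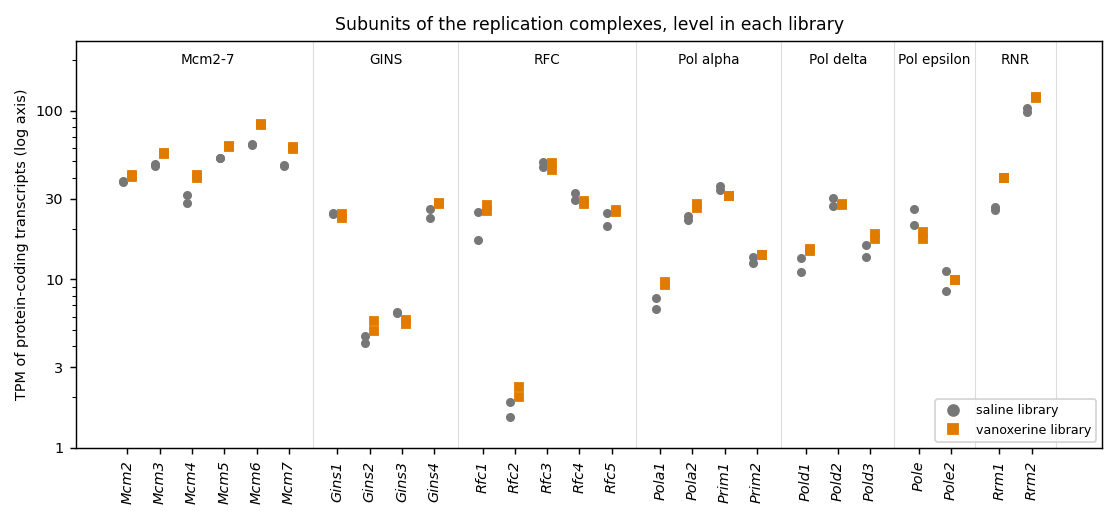
TPM of the protein-coding transcripts of each subunit in each library, log axis, grouped by complex (RNR is ribonucleotide reductase, Pol is polymerase); circles are saline and squares vanoxerine libraries. The ring subunits Mcm2 to Mcm7 lie within 28.4 to 83.1 TPM, whereas Rfc2 stands at 1.52 to 2.29 TPM, below its partner subunits, an order that turns over when all transcripts are counted.

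Most reads of Rfc2 were not on its coding transcripts. Of its estimated reads, 85.7% and 82.8% in saline and 85.0% and 81.1% in vanoxerine were on transcripts not annotated as protein-coding, chiefly a retained-intron transcript of 831 bases (58.2% and 58.8%, then 54.8% and 48.3%). Salmon's division among isoforms is an estimate whose uncertainty was not used here. Tyms had 59.3% and 48.0% of its reads on such transcripts in saline and 50.1% and 55.9% in vanoxerine, and Gins2 between 25.4% and 29.2%.

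Over all 41 genes such transcripts held 10.8% and 10.5% of the reads with saline against 8.97% and 8.76% with vanoxerine, with no overlap. Over all protein-coding genes, coding transcripts held 87.6% and 87.3% of reads in saline and 89.1% and 89.1% in vanoxerine. The share on other transcripts was thus lower with vanoxerine there too, again with no overlap. Retained-intron transcripts made up 8.02% and 7.63% of the replication genes' reads in saline and 6.32% and 6.01% in vanoxerine. The same class was 6.11% and 6.26%, then 5.43% and 5.40%, over all protein-coding genes, so it was lower in vanoxerine there too. The gene with the widest shift among the polymerases was Pold1, with a non-coding share of 49.3% and 43.3% in saline and 34.4% and 31.4% in vanoxerine. Its retained-intron transcript of 532 bases held 21.6% and 21.6% of reads in saline and 13.8% and 11.9% in vanoxerine. Mcm10, a scaffold that helps activate the helicase, went from 41.8% and 51.4% to 32.7% and 26.3%. Pold2 went from 17.1% and 22.1% to 9.08% and 13.3%, and Rfc3 from 17.8% and 15.9% to 8.09% and 12.4%. In Pole, the catalytic subunit of polymerase epsilon, the full-length transcript of 7163 bases held 61.8% and 60.2% of reads in saline and 73.8% and 78.5% in vanoxerine, and a coding transcript of 1523 bases held 29.3% and 33.3%, then 16.5% and 12.7%. In each of these 5 genes the groups did not overlap. Across the 41 genes, the non-coding share was lower in both vanoxerine libraries for 9, higher in both for 7 and overlapping for 25. The same count over all genes was not made, so these counts have no background and are description only. Some of the shares were very small, such as Mcm6 (0.000% and 0.016% in saline, 0.145% and 0.103% in vanoxerine). Among those with the higher share were Rfc5 (10.3% and 8.39% in saline, 12.6% and 11.1% in vanoxerine) and Pole2 (0.903% and 7.65%, then 8.51% and 10.3%). These shares were not tested, and differences in RNA integrity between the tumours, which were accepted above a stated quality score, were not measured here.

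**Figure D4:**
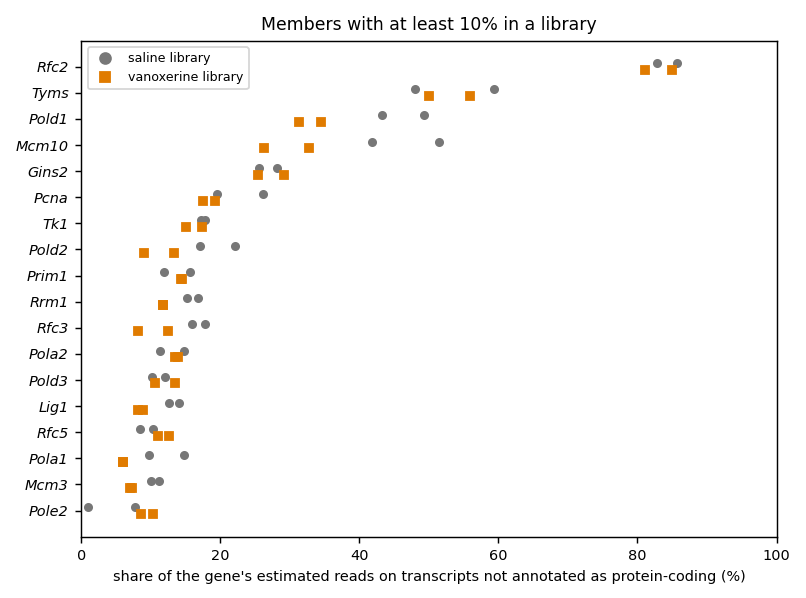
Share of each gene's estimated reads that Salmon placed on transcripts not annotated as protein-coding, for genes with at least 10% in a library; circles are saline and squares vanoxerine libraries. Pold1, Mcm10, Pold2 and Rfc3 have both vanoxerine libraries left of both saline libraries, Rfc5 and Pole2 have them to the right, and Rfc2 stays between 81.1% and 85.7%.

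Counting only reads on protein-coding transcripts, an alternative chosen after seeing the data, 2 genes rose (Rrm1, 0.30, and Tk1, 0.27) and 9 fell, together 26.8% of the members against 36.9% of all genes in that fit. Mcm4 (0.14, edgeR adjusted p = 0.0786), Mcm6 (0.09, adjusted p = 0.153) and Tyms (-0.42, adjusted p = 0.184) no longer passed, and Mcm2 did (-0.19, adjusted p = 0.0254). Cdt1, Cdc45, Gins1, Gins3, Prim1, Pold2, Rfc3 and Rfc4 fell in this count as well.

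The fold changes of all genes moved with transcript length, and the replication genes did so too. Over 9630 protein-coding genes with a mean CPM of at least 10, Spearman's rho between log2 fold change and mean effective transcript length was 0.37, and over the 41 replication genes it was 0.37. Genes of one tumour share libraries and are not independent, so these values describe the libraries. Among all genes of 500 bases or less (476 genes) the median log2 fold change was -0.33 and 58.2% fell, and among the 390 genes above 6000 bases it was 0.33 and 55.9% rose. Among the 9 replication genes of 500 to 1000 bases, 5 fell and 1 rose, with a median of -0.30, while the 1296 genes of that length had a median of -0.14 and 38.7% of them fell. The median length was 927 bases for the 9 genes that fell (643 to 2189 bases), 2311 bases for the 4 that rose (992 to 3082 bases) and 1895 bases for the 28 not called. The part of length in each call was not tested, but the trend can be removed from the fit. With a smooth length trend removed, an alternative chosen after seeing the data, rho was 0.011 over all genes and -0.14 over the replication genes. Then 4 replication genes were called higher (9.76%, against 19.6% of all genes) and 6 lower (14.6%, against 13.8%).

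Of the 9 genes that fell, 5 were called lower with the trend removed as well: Cdt1 (-0.24, edgeR adjusted p = 0.00893), Gins3 (-0.47, adjusted p = 0.0125), Prim1 (-0.33, adjusted p = 0.00375), Pold2 (-0.25, adjusted p = 0.0174) and Rfc3 (-0.25, adjusted p = 0.0165). Mcm2 joined them (-0.28, adjusted p = 0.00640). Gins1 (-0.12, adjusted p = 0.275), Tyms (-0.13, adjusted p = 0.315), Rfc4 (-0.24, adjusted p = 0.0792) and Cdc45 (-0.19, adjusted p = 0.0605) were not called. Of the genes that rose, Tk1 (0.43, adjusted p = 0.00201) and Rrm1 (0.27, adjusted p = 0.00737) were called again. Mcm4 (0.06) and Mcm6 (0.05) were not, and Pcna (0.25, adjusted p = 0.00406) and Rfc2 (0.23, adjusted p = 0.0284) were called higher.

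**Figure D5:**
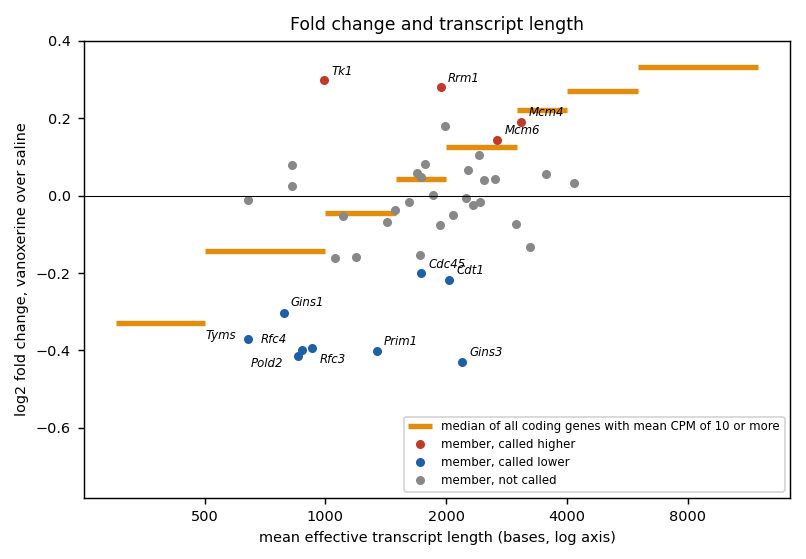
Log2 fold change of vanoxerine over saline (CPM scale) against mean effective transcript length in bases, log axis; dots are the 41 replication genes and bars the median of all protein-coding genes in each length class. The class medians climb from -0.33 to 0.33, and Gins1, Tyms, Rfc4, Pold2 and Rfc3 are all under 1000 bases.

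Other scalings moved the whole scale and the split of calls with it. With upper-quartile factors the median of all genes moved to -0.144, and 1 replication gene was called higher and 14 lower (15.4% and 24.1% of all genes). On log2(TPM + 1) with limma the median of all genes was 0.126, and 13 replication genes were called higher and 3 lower (21.8% and 4.64% of all genes). Pold1, Pold2 and Rfc3 were called lower and Tk1 higher in both of these fits. Gins1, Gins3, Prim1, Pold2, Rfc3 and Rfc4 kept a negative fold change, and Mcm4, Mcm6, Rrm1 and Tk1 a positive one, in all 17 alternatives, while Cdt1, Cdc45 and Tyms changed sign on log2(TPM + 1).

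In the authors' deposited table, 3 of the 41 genes were higher and 10 lower at an adjusted p under 0.05. All 13 genes called here had the same sign there, and 7 of them were called in both. The share called over all genes of that table was not counted, so these counts have no background. The 6 called only here were Mcm4, Rrm1, Cdt1, Cdc45, Gins1 and Tyms. Rrm1 was at 0.10 in the authors' values (authors' adjusted p = 0.394). The authors' deposited table gives log2 fold changes of -0.71 for Pold2, -0.69 for Rfc3 (adjusted p = 1.62e-09) and -0.61 for Pold1 (adjusted p = 6.49e-09). The authors' deposited table also calls Pole (-0.46) and Mcm10 (-0.43) lower and Rfc5 (0.26) higher, none of which was called in the edgeR fit to summed counts. With an offset for each gene's average transcript length in each library, edgeR on the counts here gave values near these: -0.75 for Pold2, -0.71 for Rfc3, -0.63 for Pold1, -0.49 for Pole (adjusted p = 0.0303), -0.46 for Mcm10 (adjusted p = 0.0302) and 0.27 for Rfc5 (adjusted p = 0.0997). In that fit 7 of the 41 genes (17.1%) were called, all lower, against 23% of all genes. Whether that table rests on the same 4 libraries is not stated in it.

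Reads that match overlapping or near-identical genes make some values uncertain. An exon of 13 of the 41 genes overlaps an exon of another gene, 11 of them on the opposite strand, and the strand setting is not given in the sources used here. Among the called genes these are Cdc45 with Ufd1, Rfc4 with Eif4a2 and Tk1 with Afmid. Among the genes whose transcript shares are given above, they include Rfc2 with Lat2, Gins2 with Gse1, Rfc5 with Wsb2, Pole with Gm15792 and Pole2 with Gm49384. The annotation also has pseudogenes of Pcna and Tyms that could take reads.

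A wider list of 52 other replication genes had 8 that rose, 15 that fell and 29 that were not called, with a median of -0.05. The shares were 15.4% higher and 28.8% lower, against 21% and 15.9% of all genes. The largest changes in that list exceeded every change among the 41 genes. Dck, which phosphorylates deoxycytidine for salvage, rose from 52.9 ± 2.06 to 103.8 ± 0.901 CPM (SD, n = 2), a log2 fold change of 0.97 ± 0.052 (edgeR adjusted p = 8.93e-05). Samhd1, which breaks down deoxynucleotides and is abundant in myeloid cells, rose from 391 to 669 CPM (log2 fold change 0.77). Dut, which removes dUTP and yields the substrate of Tyms, fell from 182 ± 3.11 to 118.5 ± 2.94 CPM (-0.62 ± 0.047, adjusted p = 2.79e-04), and Dtymk, the kinase after Tk1 and Tyms, fell by 0.39 on the log2 scale. Topbp1 (0.25) and Atad5 (0.56) also rose, and Recql4 (-0.49) and Rnaseh2a (-0.44) also fell. Any gene that differs between the groups moves in the same libraries as the macrophage markers given above. A part of cell makeup in the Samhd1 and Dck changes cannot be told apart here and was not tested.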

How the data were processed

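The 2 saline and 2 vanoxerine RNA-seq libraries were prepared from tumour tissue with TruSeq RNA v2 and sequenced on a NextSeq 500, per the labels' protocols. The submitters' processing notes name fastp, Salmon 1.3.0, DESeq2 and build GRCm38. Their settings, the read length and the annotation release were not given in the sources used. Each library's deposited file lists 140992 transcripts with an effective length, an estimated count of reads that is not normalized, and a TPM that Salmon scaled to length and library total, per the file headers. The authors' deposited comparison table holds a base mean (a normalized signal), a log2 fold change with its error, and p-values. Its 4 further per-library columns matched no sample and were not used.

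Transcripts were assigned to genes with GENCODE M21 after dropping version suffixes (139791 matched, 99.56% to 99.63% of reads). Estimated counts were summed per gene and rounded. The main test was edgeR 4.0.16 (R 4.3.3), quasi-likelihood with TMM factors (0.983 to 1.019) and filterByExpr at its defaults (count of 10, total of 15), without a block. p-values were Benjamini-Hochberg adjusted over 18758 genes and called under 0.05. The script was tested on simulated data. Alternatives used limma 3.58.1 and DESeq2 1.42.0, other scalings and filters, and each library left out. CPM is the count scaled to library size and TMM factor. SE comes from the test's F statistic.

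The members and all gene lists were chosen with earlier results of these data known. Named genes follow a rule by role and smallest or largest p, plus every called member. Chtf8, with 2 gene entries, was left out. Replicate numbers mark no stated pairing.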

Additional observations from a re-analysis of the deposited data

How the results depend on the processing

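Of 697 pairs of a replication gene and an alternative, 593 kept direction and call, 58 lost the call, 38 gained one and 8 changed direction with a call in at least one fit. Another 81 changed sign with no call in either fit and are counted among the 593. On log2(TPM + 1) the sign changed for Cdt1 (0.046), Mcm5 (0.241), Mcm7 (0.309), Cdc45 (0.053), Pola2 (0.359), Rfc5 (0.501) and Tyms (0.009), and with the length trend removed for Rfc2 (0.230). The cause was not tested. Upper-quartile factors gave 1 member higher, 14 lower and a median of -0.151, and among the 52 other replication genes 3 higher and 24 lower. On log2(TPM + 1) the members had 13 higher, 3 lower and a median of 0.208, and the other genes 4 lower. Library totals (2 higher, median -0.063), a mean CPM of at least 1 (2 higher, median -0.058) and coding transcripts only (2 higher, median -0.055) gave fewer genes that rose and a lower median. The median was 0.000 with no filter, -0.049 over protein-coding genes only and -0.046 with the length trend removed. A transcript length offset gave 4309 calls over all genes, 0 members higher, and 4 higher and 9 lower among the other genes.

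Leaving out each library in turn gave 3107 to 9708 calls over all genes, 0 to 8 members higher, 1 to 14 members lower, medians of -0.017 to -0.001, and 2 to 14 higher and 3 to 20 lower among the other genes. Replicate numbers are shared between the groups, but 2 pairs cannot show whether they pair the samples. With the replicate number as a block, 6391 genes were called, 3 members higher and 8 lower, with a median of -0.018, and the calls of Mcm6 (0.145) and Cdc45 (-0.200) were lost. Each library held at least 67289273 estimated reads, and only 2 libraries per group set the error of every call.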

Other observations

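Of 22 E2F and Rb network genes 10 rose and 1 fell, with a median log2 fold change of 0.20, where 21% of all genes rose. Rb1, which restrains E2F factors, rose from 21.8 ± 3.10 to 37.0 ± 0.463 CPM (SD, n = 2; log2 fold change 0.76, edgeR adjusted p = 0.00294). Ccnd1, the D-type cyclin that activates Cdk4, rose by 0.51, Cdkn1a, a Cdk inhibitor, by 0.44, and E2f8, a repressing E2F factor, by 0.47. Cdk4 itself fell from 291 to 214 CPM (-0.44, adjusted p = 0.00101). The list's median effective length was 2804 bases against 1758 bases for all genes tested, and the part of length in these changes was not tested.

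Of 25 mitosis genes 5 rose, 3 fell and 17 were not called, with a median of 0.01. The share called was 32%, against 36.9% of all genes. Mki67, the usual proliferation marker, averaged 259.6 ± 2.90 CPM with saline and 261.6 ± 1.28 CPM with vanoxerine (log2 fold change 0.01, edgeR adjusted p = 0.862), and Top2a, a topoisomerase of S phase and mitosis, at 405 ± 3.73 and 404.8 ± 0.734 CPM (0.00, adjusted p = 0.986). Bub1b (0.27), Kif23 (0.27), Prc1 (0.18) and Kif11 (0.17), genes of the spindle and its checkpoint, rose, and Cdk1 (-0.17), Ube2c (-0.27) and Aurka (-0.19) fell. The summed level of the 25 genes was 2161 ± 21.0 CPM in saline and 2182 ± 13.7 CPM in vanoxerine.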
